A study of Mus musculus with 6 samples.

Results

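The transcripts of 10 mitogen-activated protein kinase (MAPK) feedback inhibitors were examined in primary cultured mouse renal tubule epithelial cells (RTECs) exposed to TGF-β1. They were 5 dual-specificity phosphatases (Dusp1, Dusp4, Dusp5, Dusp6 and Dusp10), 3 Sprouty genes (Spry1, Spry2 and Spry4) and 2 Spred genes (Spred1 and Spred2). They were chosen by gene symbol, with earlier results of these data known, and all 10 were found among the 46517 genes of the count files. The cells came from kidneys of wild type FvB mice aged 4 to 6 weeks by the labels (the methods give a slightly younger range), digested with collagenase and passed through a mesh with no sorting for tubule cells, and were grown in medium with 10% serum and 20 ng/ml EGF. All 6 cultures were kept without serum for 24 h, and the methods do not say whether EGF was present in that medium. TGF-β1 was then added at 50 ng/ml to 3 of the cultures for a further 24 h. The other 3 were controls (CTL), for which no vehicle is named. TGF-β1 is the profibrotic cytokine with which the study asked whether Notch genes respond in tubule cells. The feedback genes are a separate readout of the same RNA.

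Growth factor receptors such as the EGF receptor activate the Ras-ERK cascade, in which Raf, MEK and ERK kinases phosphorylate one another in turn. Sprouty and Spred proteins act early, at the steps from receptor adaptors through Ras to Raf. The dual-specificity phosphatases act at the end of the cascade by removing the activating phosphates from ERK, p38 and JNK kinases. Transcription of many of these inhibitors is itself raised by ERK activity, so that they form a negative feedback loop.

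Counts on genes ranged from 28313080 to 34183497 per library, and the lowest count of any of the 10 genes in any library was 413 reads. The cultures with replicate number 2 stood apart in both groups. The summed normalized counts of 7 fibroblast markers were 68392 in CTL replicate 2 and 92338 in TGF-β1 replicate 2, and 26727 to 40163 in the other 4 cultures. Col1a1 and Col1a2 made up most of this sum, and Thy1 was lowest in replicate 2, at 13.5 and 14.5 against 33.8 to 70.4. The corresponding sums of 6 tubule epithelium markers were 30384 and 26577, against 53689 to 80832, a gap in Krt8, Krt18, Cdh1 and Epcam but not in Pax8, which in CTL was highest in replicate 2 (6807 against 6090 and 6704). Summed Y-linked transcripts (4 genes) were 151 and 142 CPM in the replicate 2 cultures and at most 0.172 CPM in the others, although the methods name male mice. Of the tubule epithelium markers, Pax8 and Cdh16 were lower with TGF-β1 (adjusted p = 0.00436 and 0.00922). Summed proximal tubule markers were 2144 to 2531 in CTL and 1101 to 1511 after TGF-β1. Most of this sum was counts of Lrp2 (adjusted p = 0.0165, lower). The means of Cubn were 142 in CTL and 152 after TGF-β1 (adjusted p = 0.698), and those of Slc13a1 were 23.8 and 13.6 (adjusted p = 0.0983). The transporter Slc34a1 was near 0, at 1.93 to 10.9 normalized counts. The marker sums were at most 91.2 for endothelium, 319 for leukocytes, 97.0 for thick ascending limb and distal tubule and 43.6 for collecting duct. Of the 6 leukocyte markers, Csf1r was lower with TGF-β1 and 5 were not called. The part of these differences in the results was not tested. In RNA from whole cultures, fewer cells of a type and less RNA per cell cannot be told apart.

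Normalized counts are read counts scaled with TMM factors to a common library size (the geometric mean of all 6), and a change is given as the log2 fold change of TGF-β1 over CTL from edgeR's quasi-likelihood test, with its standard error and a p-value adjusted over the 15862 genes tested. Of the 10 genes, 1 rose (Dusp4), 3 fell (Spry1, Spry2 and Spred1) and 6 did not pass an adjusted p-value of 0.05. Among all genes tested 5.00% rose and 6.69% fell. The replicate numbers were taken to pair the cultures, although the labels and methods describe no pairing. With the replicate number as a block, 1 gene rose and 5 fell, since Dusp1 and Dusp10 joined, and the share over all genes was 15.1% higher and 19.1% lower. In 1 gene every TGF-β1 culture lay above every CTL culture and in 5 genes below, against 17.2% and 18.0% of all genes tested. The median log2 fold change of the 10 genes was -0.26, against -0.0028 over all genes. Without both replicate 2 cultures, 1 gene rose and 5 fell without the block (6.79% and 8.09% of all genes), and 1 rose and 6 fell with it (14.3% and 17.0%), with Dusp5 among those that fell in both. Without both replicate 1 cultures and without the block, 0 of the 10 genes and 0 of all 15961 tested were called. With the block 1 rose and 4 fell, against 1026 and 1649 of all genes. Without both replicate 3 cultures and without the block, 0 of the 10 genes were called, against 95 higher and 190 lower of 16023. With the block 1 rose and 5 fell, against 2581 and 3254 of all genes.

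**Figure D1:**
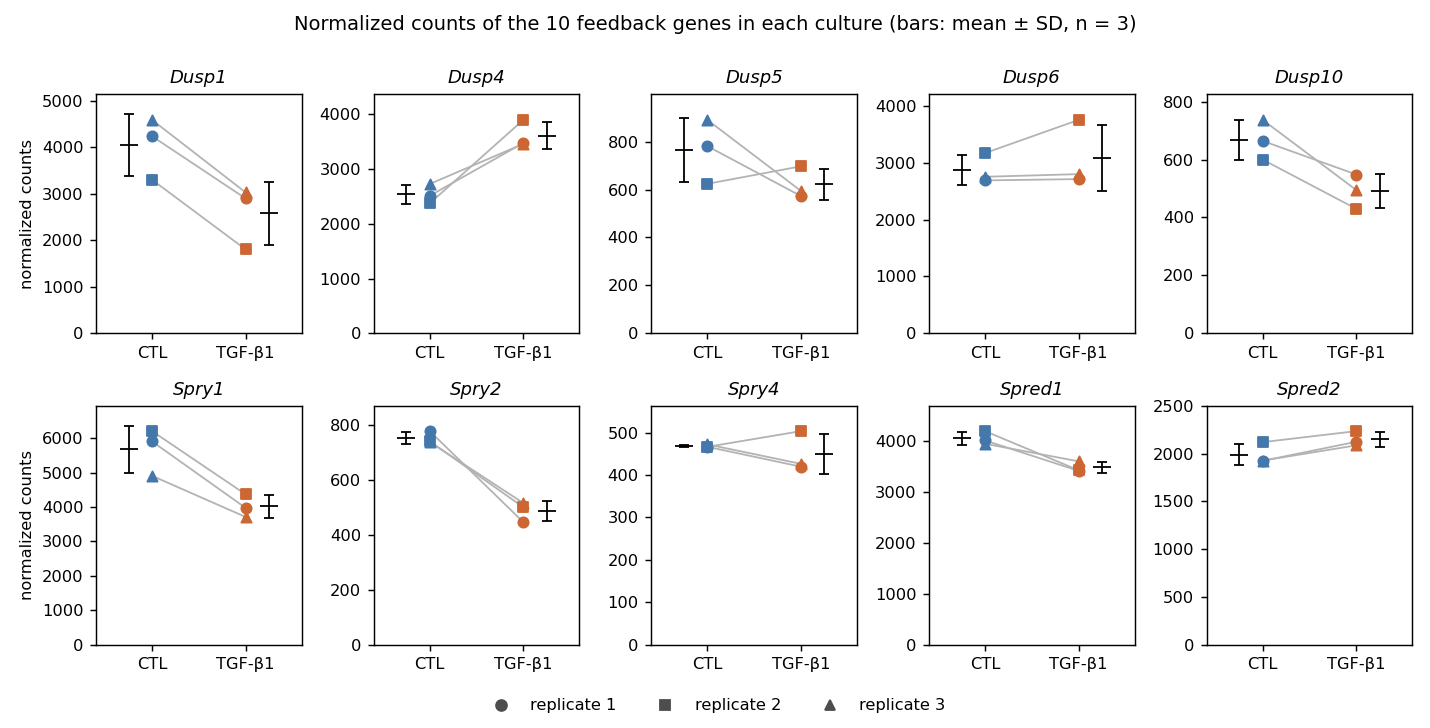
Normalized counts (vertical axes, from 0) of the 10 genes in the 3 CTL and 3 TGF-β1 cultures; lines join cultures with the same replicate number, and bars give the mean ± SD (n = 3). The groups do not overlap for Dusp1, Dusp4, Dusp10, Spry1, Spry2 and Spred1, and Dusp4 is the single gene of these that is higher with TGF-β1.

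Dusp4 encodes a nuclear phosphatase of ERK and JNK, and it lies on chromosome 8 of GRCm38 from 34807297 to 34819894. Its normalized counts were 2509, 2371 and 2725 in CTL replicates 1, 2 and 3 and 3474, 3895 and 3457 after TGF-β1. All 3 treated cultures lay above the highest control, and the means were 2535 ± 178 and 3608 ± 248 (SD, n = 3 each). Dusp4 rose 1.42-fold, a log2 fold change of 0.51 with a standard error of 0.07 (adjusted p = 0.0124). Within cultures of the same number the log2 ratio was 0.47, 0.72 and 0.34. Leaving out CTL replicate 1 or TGF-β1 replicate 1 ended the call (adjusted p = 0.0733 and 0.0575), and leaving out any of the other 4 cultures did not. With the replicate block it was 0.00119.

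Dusp6, a cytoplasmic phosphatase with preference for ERK that is a widely used readout of its activity, did not pass. Its normalized counts were 2692, 3173 and 2755 in CTL and 2715, 3757 and 2802 after TGF-β1. The groups overlapped, and replicate 2 was the highest culture in both. The log2 fold change was 0.11 (95% interval -0.24 to 0.45, adjusted p = 0.676), and with the replicate block the interval was -0.035 to 0.22 (adjusted p = 0.233). Without TGF-β1 replicate 2 the estimate was -0.064. Each same-numbered pair was higher with TGF-β1, by log2 ratios of 0.012, 0.24 and 0.024.

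Dusp5 encodes a nuclear phosphatase specific for ERK. Its normalized counts were 781, 624 and 891 in CTL and 573, 697 and 594 after TGF-β1, so that the groups overlapped through replicate 2 alone. The log2 ratio within numbers was -0.45 and -0.58 for replicates 1 and 3 and 0.16 for replicate 2. The log2 fold change was -0.30 (95% interval -0.66 to 0.055, adjusted p = 0.24), and 0.172 under the block. When both replicate 2 cultures were left out, the estimate was -0.52 (adjusted p = 0.0179 without the block and 0.000701 with it). It was -0.23 without replicate 1 (adjusted p = 0.727, and 0.465 with the block) and -0.14 without replicate 3 (0.657, and 0.492 with the block), and -0.18 without CTL replicate 3 alone. Fits that leave out a replicate number rest on 4 cultures.

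Dusp1, an immediate-early gene whose nuclear product acts on p38, JNK and ERK, had 4233, 3299 and 4584 normalized counts in CTL and 2896, 1801 and 3026 after TGF-β1. The lowest culture of each group was replicate 2, and all treated cultures lay below all controls. The log2 fold change was -0.65 (standard error 0.22), the largest in size among the 10, but its adjusted p-value was 0.121. The log2 ratios within numbers were -0.55, -0.87 and -0.60. The block, which removes the differences between replicate numbers, gave a standard error of 0.07 and a call (adjusted p = 0.000226). Without the block, Dusp1 was called when both replicate 2 cultures were left out (adjusted p = 0.00455), but not without replicate 1 (0.488), without replicate 3 (0.248) or without any single culture (0.108 to 0.305).

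Dusp10 encodes a phosphatase with preference for p38 and JNK. It had 664, 600 and 737 normalized counts in CTL and 548, 430 and 495 after TGF-β1, with no overlap. Its log2 fold change of -0.44 had a standard error of 0.12 and missed the threshold (adjusted p = 0.0647), but passed it under the block (adjusted p = 0.00328). The pairs of replicates 1, 2 and 3 had log2 ratios of -0.28, -0.48 and -0.58. Scaling by library size alone, which shifted the median gene to -0.077, gave -0.51 (adjusted p = 0.0462), and leaving out both replicate 2 cultures without the block gave -0.42 (adjusted p = 0.0369). Without replicate 1, without replicate 3 or without any single culture it was not called in the absence of the block (adjusted p = 0.353, 0.251, and 0.0689 to 0.199).

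Of the Sprouty genes, Spry1 and Spry2 fell and Spry4 did not pass the threshold. Spry1, a regulator of ureteric bud outgrowth in kidney development, lies on chromosome 3 from 37639947 to 37644598. Its normalized counts were 5909, 6209 and 4908 in CTL and 3974, 4369 and 3711 after TGF-β1, so that each treated culture was below each control. The means were 5675 ± 681 and 4018 ± 331 (SD, n = 3 each), giving a log2 fold change of -0.50 with a standard error of 0.10 (adjusted p = 0.0339). The call was lost without CTL replicate 1 (adjusted p = 0.139), CTL replicate 2 (0.0742), TGF-β1 replicate 1 (0.124) or TGF-β1 replicate 3 (0.0903). With the block the standard error was 0.05 and the adjusted p-value 0.000182.

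Spry2, whose product binds the adaptor Grb2 and the ubiquitin ligase Cbl, lies on chromosome 14 from 105891947 to 105896819. It had 777, 740 and 738 normalized counts in CTL and 446, 500 and 515 after TGF-β1. The controls differed among themselves by far less than from the treated cultures, with means of 752 ± 22.1 and 487 ± 36.6 (SD, n = 3 each). Without the block, Spry2 had the smallest adjusted p-value of the 10 genes (log2 fold change -0.63, standard error 0.08, adjusted p = 0.00833). The level fell by 35.2%. The call was lost when CTL replicate 1 was left out (adjusted p = 0.0559) and kept when any of the other 5 cultures was. With the block the adjusted p-value was 0.000553, and those of Spry1 (0.000182) and Dusp1 (0.000226) were smaller.

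Spry4, the third Sprouty gene measured, had 466, 466 and 472 normalized counts in CTL and 419, 503 and 426 after TGF-β1. The groups overlapped, since replicate 2 was above the controls and the other treated cultures were below them. The log2 fold change was -0.059 (95% interval -0.28 to 0.16, adjusted p = 0.723). The interval does not reach the estimates of Spry1 and Spry2, but it overlaps the 95% interval of Spry1 (-0.75 to -0.24). A difference between Spry4 and Spry1 was not tested.

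Spred proteins bring the Ras-inactivating protein neurofibromin to the membrane. Spred1 (chromosome 2, 117121374 to 117182279) had 4001, 4184 and 3936 normalized counts in CTL and 3405, 3416 and 3592 after TGF-β1. The treated cultures lay below the controls without overlap, and the level fell by 14.1%, a log2 fold change of -0.22 with a standard error of 0.05 (adjusted p = 0.0345). Leaving out any of the 6 cultures ended this call (adjusted p = 0.0596 to 0.14). With the replicate block it was 0.00829. Spred2 had 1926, 2122 and 1929 normalized counts in CTL and 2126, 2237 and 2088 after TGF-β1. Its groups overlapped, and the log2 fold change was 0.11 (95% interval -0.031 to 0.25, adjusted p = 0.274, and 0.089 with the block).

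**Figure D2:**
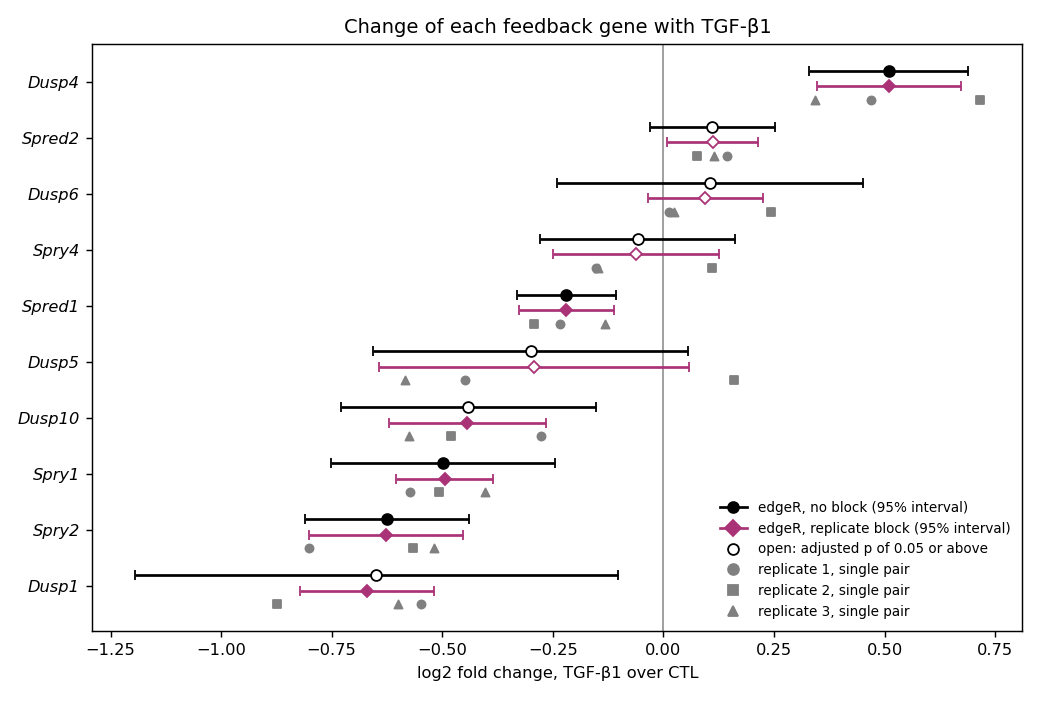
Log2 fold change of TGF-β1 over CTL (horizontal axis) for each gene from edgeR without (circles) and with the replicate block (diamonds), with 95% intervals, filled where the adjusted p-value is under 0.05; grey symbols are the log2 ratios of single same-numbered pairs. The block shortens the interval most for Dusp1, from -1.20 to -0.10 without it to -0.82 to -0.52 with it, and for Dusp5 the replicate 2 pair lies at 0.16, apart from the other pairs.

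Levels of different genes were compared as TMM-scaled CPM per kb of exon. In CTL the order was Spry1 (61.7 ± 7.4), Dusp1 (38.5 ± 6.34), Dusp4 (29.2 ± 2.06), Dusp6 (29.0 ± 2.64), Spred1 (18.8 ± 0.598), Spred2 (13.6 ± 0.768), Spry2 (11.4 ± 0.334), Dusp5 (9.77 ± 1.71), Dusp10 (6.93 ± 0.712) and Spry4 (3.11 ± 0.0221) CPM per kb (SD, n = 3 each). Cultures of neighbours in this order overlapped for Dusp4 and Dusp6 and for Spry2 and Dusp5. Spry1 stood at the 95.7th percentile of all genes tested and Spry4 at the 39.9th. After TGF-β1, Spry1 (43.7 ± 3.6) and Dusp4 (41.6 ± 2.86) overlapped at the top, and Dusp6 (31.2 ± 5.83) came before Dusp1 (24.6 ± 6.42), with which it overlapped (SD, n = 3 each). The exon length of Dusp1 includes distal exons of long transcripts, which lowers its value per kb. In the annotation, exons of Dusp1, Dusp5 and Spry1 also overlap exons on the opposite strand (Ergic1, AC137853.2 and Gm42922), and the strand setting of the counting is not given in the sources used here.

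**Figure D3:**
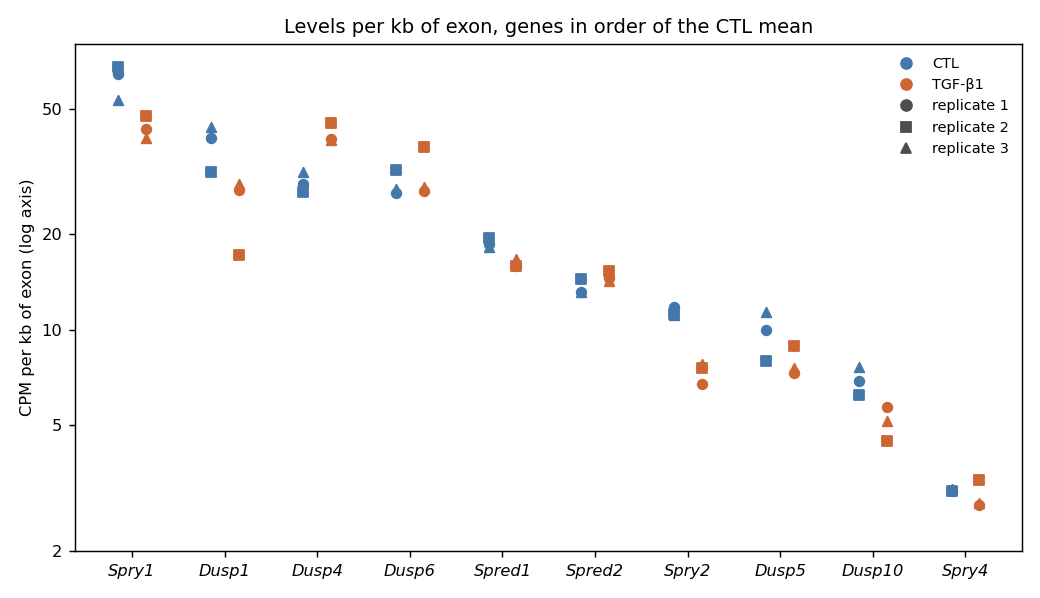
CPM per kb of exon (vertical axis, log scale) in each CTL and TGF-β1 culture, with genes in the order of their CTL mean. Dusp4 stands beside Dusp6 in CTL and beside Spry1 after TGF-β1, while Spry4 is lowest in all 6 cultures.

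Ratios within a library compare paralogs without any scaling between libraries. The log2 ratio of Dusp4 to Dusp6 per kb was 0.092, -0.23 and 0.18 in CTL replicates 1, 2 and 3 and 0.55, 0.24 and 0.50 after TGF-β1, a difference of 0.42. Every treated culture had a higher Dusp4 share than every control. Spry4 rose relative to Spry2 by 0.57, from -1.87 ± 0.05 to -1.31 ± 0.14, and Spred1 fell relative to Spred2 by 0.33, from 0.47 ± 0.04 to 0.14 ± 0.09 (SD, n = 3 each). These 3 ratios did not overlap between groups (exact permutation, two-sided, p = 0.1, and 0.167 after adjustment over the 5 ratios tested). Spry1 to Spry2 and Dusp5 to Dusp6 overlapped between groups (differences of 0.13 and -0.38, exact permutation p = 0.4 and 0.3). Within same-numbered pairs, Spry1 to Spry2 was higher in 3 of 3 and Dusp5 to Dusp6 lower in 3 of 3, and an exact permutation within pairs gave p = 0.25 for each of the 5 ratios, the smallest it can give. With 3 cultures in each group the unpaired test cannot give a p under 0.1, so no ratio could reach 0.05.

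Promoter sequence was read for the 8 genes with an entry in the RefSeq table (build GRCm38.p6), as the 200 bases that end 51 bases before the annotated start. 5 are shown: Dusp1 and Dusp5 for the rarest motifs found, Spry1 and Spry2 as the Sprouty pair that fell, and Dusp6 as an ERK phosphatase that did not pass. Capitals mark matches on either strand to the cyclic AMP response element (CRE, TGACGTCA), its half-site TGACG, which lies inside each full CRE on both strands, the AP-1 site TGANTCA, the CArG box of serum response factor, the ETS core CGGAAG, the core TGGGAA of the Notch effector RBPJ, and the Smad box CAGAC.
Dusp1 (chr17:26508523-26508722, minus strand): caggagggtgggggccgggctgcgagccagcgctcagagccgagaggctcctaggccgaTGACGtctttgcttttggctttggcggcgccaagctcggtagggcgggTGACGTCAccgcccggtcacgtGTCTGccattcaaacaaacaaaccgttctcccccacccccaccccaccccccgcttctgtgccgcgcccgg
Dusp5 (chr19:53528895-53529094, plus strand): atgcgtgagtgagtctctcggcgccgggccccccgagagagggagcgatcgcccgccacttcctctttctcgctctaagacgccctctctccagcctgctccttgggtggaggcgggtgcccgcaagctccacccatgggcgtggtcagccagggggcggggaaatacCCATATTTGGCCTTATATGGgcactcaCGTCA
Dusp6 (chr10:99262981-99263180, plus strand): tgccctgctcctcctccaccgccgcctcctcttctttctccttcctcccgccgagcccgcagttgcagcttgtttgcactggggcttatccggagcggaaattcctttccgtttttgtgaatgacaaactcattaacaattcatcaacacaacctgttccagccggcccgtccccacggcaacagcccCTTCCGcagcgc
Spry1 (chr3:37639697-37639896, plus strand): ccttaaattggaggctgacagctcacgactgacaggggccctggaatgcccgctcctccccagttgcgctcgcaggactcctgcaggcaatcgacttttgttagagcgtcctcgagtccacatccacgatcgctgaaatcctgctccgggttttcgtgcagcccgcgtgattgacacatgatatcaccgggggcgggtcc
Spry2 (chr14:105896870-105897069, minus strand): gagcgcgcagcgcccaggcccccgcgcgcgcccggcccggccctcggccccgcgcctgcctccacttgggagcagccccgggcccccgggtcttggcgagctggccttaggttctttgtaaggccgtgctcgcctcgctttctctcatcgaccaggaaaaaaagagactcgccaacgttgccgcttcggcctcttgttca
The Dusp1 window held a full CRE 143 to 136 bases before the start, a further half-site and a Smad box, and 0.828% of 32851 promoter windows of this length held a CRE. The Dusp5 window held 2 CArG boxes next to each other, 82 to 63 bases before the start, and 1.16% of windows held at least 1. The Dusp6 window held an ETS core, as did 9.25% of windows, and that of Spred2 an RBPJ core, as did 17.9%. The windows of Spry1, Spry2, Spred1 and Dusp10 held none of these motifs. The AP-1 site was in 0 of the 8 windows and in 5.57% of all, the half-site in 2 of 8 and 12.7%, and the Smad box in 1 of 8 and 35.8%. A GC box (GGGCGG, not capitalised) was in 5 of 8 windows (Dusp1, Dusp5, Dusp10, Spry1 and Spred1) and in 24.6% of all. A match is a description of the letters, and no binding was measured in these cultures.

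Other genes of the pathway were read from fixed lists. For comparison with the counts of each list, 5.00% of all genes tested rose and 6.69% fell. With the block these shares were 15.1% and 19.1%. Of 5 other MAPK phosphatases, 1 rose and 0 fell, and with the replicate block 3 rose and 0 fell (median log2 fold change 0.20). Dusp2, an inducible nuclear phosphatase, rose from 115 ± 1.03 to 188 ± 22.1 normalized counts (SD, n = 3 each; log2 fold change 0.71, adjusted p = 0.0205). Dusp7 and Dusp8 had log2 fold changes of 0.36 and 0.20 and passed with the block alone (adjusted p = 0.00189 and 0.0141). Of 14 atypical dual-specificity phosphatases 11 were tested, 1 rose and 0 fell, and with the block 1 rose and 3 fell. Dusp14 rose with a log2 fold change of 0.66 (adjusted p = 0.0375). Dusp27 (-2.13), Dusp22 (-0.24) and Dusp3 (-0.16) passed with the block alone (adjusted p = 0.00139, 0.0326 and 0.0225). Normalized counts of Dusp27 were low, at 62.8, 151 and 31.6 in CTL replicates 1, 2 and 3 and 18.3, 22.8 and 15.0 after TGF-β1. Spred3, the remaining Spred gene, had a log2 fold change of 0.33 (adjusted p = 0.0775, and 0.00588 with the block), and Spry3 was not analysed here.

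Of 9 other feedback inhibitors of receptor tyrosine kinases, 4 rose and 0 fell, and with the block 5 rose and 1 fell (median log2 fold change 0.22). Lrig3, of a family of membrane proteins that bind growth factor receptors, rose from 1638 ± 163 to 6870 ± 894 normalized counts (SD, n = 3 each; log2 fold change 2.07, adjusted p = 0.00121). Lrig1, which promotes degradation of EGF receptor family members, rose by 0.77 on the log2 scale (adjusted p = 0.00722). Il17rd, which restrains FGF signaling, and the ubiquitin ligase gene Cbl rose by 0.42 and 0.24 (adjusted p = 0.0323 and 0.0435). Cblb had a log2 fold change of 0.22 and passed with the block alone (adjusted p = 0.0111). Errfi1, an inhibitor of the EGF receptor kinase named here after its values were seen, was the gene that fell with the block (-0.21, adjusted p = 0.0127, and 0.335 without it). The genes of this list called without the block thus moved in the opposite direction to Spry1, Spry2 and Spred1.

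Of 23 genes of the Ras-ERK cascade itself 1 rose and 1 fell, and with the block 5 rose and 4 fell (median log2 fold change 0.075). Map2k1, which encodes a MEK kinase, rose from 3620 ± 104 to 4696 ± 535 normalized counts (SD, n = 3 each; log2 fold change 0.38, adjusted p = 0.0405), and Rps6ka3, an ERK-activated kinase gene, fell by 0.25 (adjusted p = 0.0448). Rps6ka1 (-0.43), Braf (-0.25) and Nras (0.17) passed with the block alone (adjusted p = 0.000308, 0.0316 and 0.0184). Of 17 genes of the p38 and JNK cascades, 1 rose and 1 fell, and with the block 3 rose and 7 fell (median -0.0011). The genes called without the block were Mapk8, a JNK kinase gene named after its values were seen (0.23, adjusted p = 0.0375), and the upstream kinase gene Map3k1, which fell from 1460 ± 131 to 747 ± 81.2 normalized counts (SD, n = 3 each; -0.97, adjusted p = 0.00619). Map3k5 (-0.76), Mapk13 (-0.51), Map2k6 (-0.47) and Mapk11 (-0.47) passed with the block alone (adjusted p = 0.0072, 0.000289, 0.0201 and 0.00641).

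Of 12 transcriptional readouts of ERK activity other than the feedback genes, 1 rose and 3 fell, and with the block 4 rose and 5 fell (median log2 fold change -0.18). Etv1, an ETS factor, Fos, an immediate-early factor, and the cyclin gene Ccnd1 fell by 1.23, 1.07 and 1.02 on the log2 scale (adjusted p = 0.0215, 0.00379 and 0.0166). Phlda1 rose by 0.47 (adjusted p = 0.0188), and Fosl1 had 0.64 (adjusted p = 0.13, and 0.0106 with the block). These readouts stood on both sides of 0, as the 10 feedback genes did. Of 12 direct targets of TGF-β signaling 6 rose and 0 fell, and with the block 11 rose and 0 fell (median 0.52). Snai1, a transcription factor of epithelial-mesenchymal transition, rose by 0.98 on the log2 scale, Pmepa1 by 0.87 and Skil by 0.76 (adjusted p = 0.0379, 0.0105 and 0.00379). Klf10 had 0.56 (adjusted p = 0.115, and 7.01e-05 with the block).

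**Figure D4:**
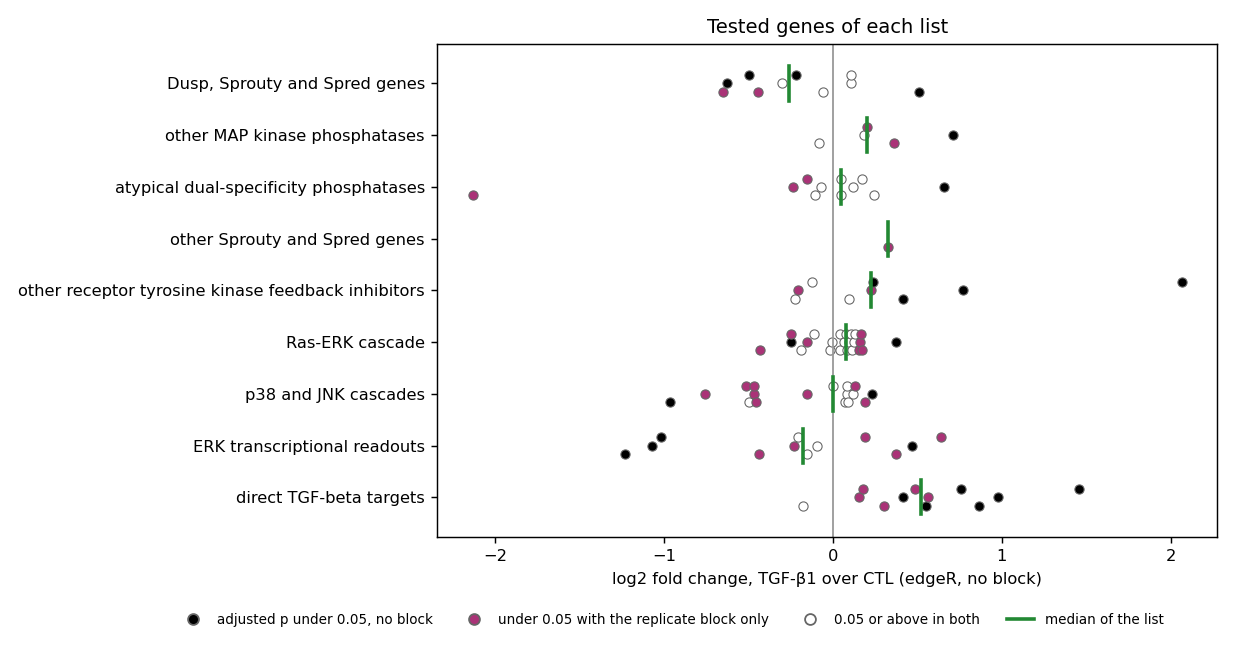
Log2 fold change (horizontal axis, edgeR without the block) of every tested gene of each list; black points have an adjusted p-value under 0.05, purple ones only with the replicate block, open ones in neither, and green lines are list medians. The medians of the 10 feedback genes and of the ERK readouts are below 0, at -0.26 and -0.18, and that of the TGF-β targets is 0.52.

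Among all tested genes, those nearest to a called gene in pattern were found by the Euclidean distance over the 6 libraries between log2 CPM values centred on each gene's mean. Tes, Acsl4 and Nudt18 were nearest to Dusp4 (distances 0.0408, 0.0993 and 0.1), with log2 fold changes of 0.49, 0.50 and 0.46. Pam, Apbb1 and Hdac7 were nearest to Spry1 (0.0943, 0.109 and 0.112) and Slc4a8, Otud1 and Mtcl1 to Spry2 (0.125, 0.125 and 0.138). Trove2, Tbcel and Sbf2 were nearest to Spred1 (0.0398, 0.0497 and 0.054). The distances rest on 6 libraries and say only that these levels ran in parallel.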

How the data were processed

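Poly(A) RNA of 3 CTL and 3 TGF-β1 cultures was sequenced as single-end reads. The deposited values are whole read counts per gene, without normalization; per the submitters' processing notes and the methods, the authors trimmed reads with Trim Galore, aligned them to GRCm38 with STAR 2.4.1d and counted them with HTSeq 0.6.1, which leaves out reads aligned to more than 1 place or lying on more than 1 gene. Rows that name no gene held 25.4 to 25.9% of reads and were left out. Symbols, positions and exon lengths came from GENCODE M21 (46005 of 46517 identifiers matched, versions dropped); Ctgf was matched as Ccn2 through RefSeq synonyms.

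Counts were tested in R 4.3.3 with edgeR 4.0.16 (filterByExpr, TMM, robust glmQLFit, two-sided glmQLFTest, group alone in the model, Benjamini-Hochberg adjustment over 15862 genes, threshold 0.05). Standard errors were derived from the F statistic, and 95% intervals from the same t distribution. Alternatives were DESeq2 1.42.0, limma-voom (limma 3.58.1), RLE scaling, library size only, a looser filter (1 count) and a stricter one (10 counts in every library), a threshold of 0.01, the replicate block and left-out cultures; the block without replicate 1 or 3 and the test of ratios within pairs were added after seeing the data. The fits were checked on a single draw of simulated counts without replicate effects. There the share of false calls was above the threshold for every tool, highest for DESeq2 and next highest for the replicate block. The block also recovered the fewest of the changed genes. Since the draw held no replicate effects for a block to remove, it cannot judge the block where replicate numbers pair the cultures. The replicate numbers of the labels were taken to pair the cultures, since deviations from the group means correlated across genes at 0.34, 0.684 and 0.572 within numbers, and at -0.617 to 0.215 between them. No source says that cultures came from separate animals, so p-values measure the spread between these cultures. No pair of libraries matched within sampling noise (chi-square per degree of freedom at least 9.02).

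The 10 genes and all lists were chosen with earlier results of these data known. Named genes were the 10 members; of each list those called with or without the block, at most the 5 with the largest absolute log2 fold change; and the 3 nearest genes by pattern of each called member (0.1 CPM added before the log). One gene that this rule names is not reported here.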

Additional observations from a re-analysis of the deposited data

How the results depend on the processing

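The direction of 9 of the 10 log2 fold changes was the same in all 19 alternatives; Dusp6 went from 0.11 to -0.064 without TGF-β1 replicate 2, the lowest of a range that reached 0.20 without TGF-β1 replicate 1. The causes of the differences below were not tested, beyond the smaller number of cultures in the fits that left some out. Against 1 higher and 3 lower of the 10 genes, DESeq2 gave 5 lower and the replicate block 5 lower, a threshold of 0.01 gave 0 higher and 1 lower, and leaving out single cultures or all those of 1 number, without the block, gave 0 to 1 higher and 0 to 5 lower. With the block and without replicate 2, 1 or 3 in both groups, 6, 4 and 5 were lower. Against 793 higher and 1061 lower genes of all tested, the block gave 2388 and 3037, DESeq2 1201 and 1521, library size only 508 and 1467, and a threshold of 0.01 gave 127 and 192. The block without replicate 2, 1 or 3 gave 2288, 1026 and 2581 higher and 2718, 1649 and 3254 lower. Without the block, leaving out single cultures gave 109 to 516 higher and 186 to 807 lower, the fewest without CTL replicate 1, and leaving out all those of 1 number gave 0 to 1084 higher and 0 to 1290 lower; the 0 came without replicate 1, where edgeR found 1938 genes at an unadjusted p-value under 0.05. The block changed the calls of Dusp1 and Dusp10 and of no other of the 10 genes. Spred1 missed the threshold with no filter beyond 1 count (adjusted p = 0.0531, edgeR) and without both replicate 2 cultures (0.0671). It also missed without both replicate 1 cultures (0.416) or both replicate 3 cultures (0.108), and with the block without replicate 1 (0.112). No member had a count near the floor of 3 reads (the lowest was 413), so depth limits them little.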

Other observations

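Some of the 10 genes also differed by replicate number, a comparison that the design does not make. On the log2 scale, replicate 2 lay below the mean of replicates 1 and 3 for Dusp1 by -0.42 in CTL and -0.72 after TGF-β1, and for Dusp10 by -0.22 and -0.28. It lay above that mean for Dusp6 by 0.22 and 0.45 and for Spry1 by 0.21 and 0.19. For Dusp5 and Dusp4 the sign differed between groups: -0.42 in CTL and 0.26 after TGF-β1 for Dusp5, and -0.14 and 0.17 for Dusp4. Spred2 was within 0.14 of the other cultures in both groups. Each of these values rests on 1 culture against 2, so no test was made.

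The summed normalized counts of the 10 genes were 23959, 23788 and 23676 in CTL replicates 1, 2 and 3 and 20576, 21606 and 20707 after TGF-β1. The sums of the 9 other receptor tyrosine kinase feedback inhibitors were 20921 to 21635 in CTL and 27027 to 29696 after TGF-β1. In both sums the groups did not overlap, and the direction was opposite. In the first sum the largest falls in mean were those of Spry1 (5675 to 4018) and Dusp1 (4039 to 2574, not called without the block). The means of Dusp4, Dusp6 and Spred2 were higher after TGF-β1. Lrig3, with means of 1638 and 6870, made up most of the rise of the second sum, and the means of Errfi1, Lrig2 and Socs5 were lower after TGF-β1. Longer transcripts weigh more in such sums, which are not levels per length.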
